A study of Mus musculus with 12 samples.

Results

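Smooth muscle contractile genes and pericyte genes were followed in cultured mouse aortic endothelial cells that lacked Ets1, Ets2 or both. The members were 10 genes chosen by symbol: Acta2, Tagln, Cnn1, Myh11, Myl9, Tpm1, Tpm2, Cald1, Rgs5 and Pdgfrb. Of these, 8 had at least 1 probe set under their own symbol, 20 probe sets in all, among the 20523 probe sets and 11015 named genes of the deposited table. Cnn1 and Myh11 were not analysed here. No filter on low values was used, so all 8 were tested. Myl9, at a mean log2 signal of 6.84 over the 11 arrays used, lay below the 20th percentile of gene means, 7.77. The cells came from the aorta of mice aged 4 weeks and were infected with a lentivirus before RNA was hybridised to Affymetrix arrays. Of the arrays used, 2 were labelled Ets1/2 null (Ets1-/-; Ets2fl/fl cells given lentiviral-egfp-Cre). Another 3 were Ets1 null (Ets1-/-; Ets2fl/fl with lentiviral-egfp), 3 were Ets2 null (Ets1+/+; Ets2fl/fl with lentiviral-egfp-Cre) and 3 were wild type (Ets1+/+; Ets2+/+ with lentiviral-egfp). All cells therefore carried an egfp lentivirus, the Ets1 null cells also carried floxed Ets2, and Cre went with Ets2 loss in both groups that had it. The labels call the arrays biological replicates without saying that each came from its own animal or culture, so p-values measure the spread between these arrays, which may be technical.

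Contraction in smooth muscle depends on myosin sliding along actin filaments, and the genes for this machinery are switched on together by serum response factor, which binds CArG boxes near their promoters, and by its partners of the myocardin family. Pericytes wrap small vessels, answer PDGF-B from the endothelium through the receptor Pdgfrb, and share part of the contractile programme. Endothelial cells normally keep Acta2 and Tagln low, and both are raised in cultures that hold mural cells or in endothelial cells that turn towards a mesenchymal state, while Myl9, Tpm1, Tpm2 and Cald1 also serve the cytoskeleton of cells that are not muscle. Ets1 and Ets2 are related transcription factors that bind a GGAA core and act in endothelial cells.

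The labels were first set against the arrays. The brightest Ets1 probe set read 10.02 and 10.29 (log2 signal) on the arrays labelled Ets1/2 null, 8.31, 8.76 and 9.17 on the Ets1 null arrays and 10.26, 9.84 and 10.06 on wild type, so by this probe set the arrays labelled Ets1/2 null did not stand with the Ets1 null arrays. Of the 3 other Ets1 probe sets, 1 gave the same picture, with 9.81 and 9.81 on the arrays labelled Ets1/2 null against 8.13, 8.77 and 8.92 on Ets1 null. Another went the opposite way, at 6.49 and 7.05 against 7.72, 8.57 and 8.51, and the last did not separate these groups, at 7.40 and 7.98 against 6.95, 7.92 and 7.94. The brightest Ets2 probe set read 11.02 and 9.63 on the arrays labelled Ets1/2 null, 10.28, 10.37 and 10.54 on Ets1 null, 9.63, 9.35 and 10.13 on Ets2 null, and 9.72, 10.01 and 10.70 on wild type. Ets2 was thus highest of all on 1 array labelled Ets1/2 null, and the Ets2 null arrays overlapped wild type. Where the probes lie relative to the deleted parts was not known here, so directions below refer to the labels. The column of Ets1/2 null replicate 3 equalled the mean of the other 2 in 20521 probe sets and was left out. The gene medians of the 2 arrays kept were 8.73 and 8.69, against 9.39 to 9.49 on the single null arrays and 9.37 to 9.50 on wild type. Every value is therefore given as deposited and, where it matters, after subtracting each array's median over all genes (centred). The Ets1 and Ets2 readings above are as deposited only, so they include the lower medians of the arrays labelled Ets1/2 null. Once each array's gene median was subtracted, the 1 Ets1 probe set that was low on these arrays overlapped between them and Ets1 null. The brightest Ets1 probe set on them then lay above every wild type array. The brightest Ets2 probe set on them lay above all Ets2 null arrays. The cause was not tested. By Xist and the Y-linked gene Eif2s3y, the 3 Ets2 null arrays and wild type replicate 1 were male and the other 7 arrays female. Ets2 null replicate 3 stood apart in genes of dividing cells, with Mki67 at 6.61 and Birc5 at 6.31, against 9.95 to 12.59 and 8.91 to 12.39 on the other 10 arrays. Of 28 endothelial markers 10 were on the table, and Kdr, Egfl7 and Mmrn2 lay below the array median on every array, while Pecam1, Cdh5, Tek and Tie1 were not analysed here.

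Acta2, which encodes the smooth muscle alpha-actin of the thin filament, was lowest on the Ets2 null arrays. Its single probe set, of a type that can match more than 1 transcript, read 14.05 and 10.51 (log2 signal) on the arrays labelled Ets1/2 null, 10.70, 11.23 and 13.35 on the Ets1 null arrays, 9.36, 9.35 and 9.12 on the Ets2 null arrays, and 11.81, 12.70 and 11.34 on wild type. All 3 Ets2 null arrays lay below the other 8. The Ets2 null arrays were also the tightest, at 9.28 ± 0.13 (SD, n = 3), against 11.95 ± 0.69 on wild type (SD, n = 3). After centring the Ets2 null arrays held -0.05, -0.05 and -0.33, close to the median gene of their array, and wild type held 2.44, 3.27 and 1.84.

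Tagln, which encodes transgelin, an actin-binding protein of contractile smooth muscle, had 11.04 and 6.39 on the arrays labelled Ets1/2 null, 7.03, 8.26 and 11.03 on Ets1 null, 9.58, 9.39 and 7.56 on Ets2 null, and 8.84, 10.995 and 8.42 on wild type. The groups overlapped throughout, and none lay wholly above or below wild type. Myl9, the regulatory light chain whose phosphorylation starts smooth muscle contraction, had 8.93 and 5.01 on the arrays labelled Ets1/2 null, 5.22, 8.07 and 8.52 on Ets1 null, 6.01, 6.17 and 6.58 on Ets2 null, and 7.39, 7.64 and 5.66 on wild type. For Tagln and Myl9 alike, the highest and the lowest of the 11 deposited values both came from the pair labelled Ets1/2 null. After centring the lowest array was Ets1 null replicate 1 in both genes, at -2.44 in Tagln and -4.25 in Myl9. Replicate 2 labelled Ets1/2 null then held -2.30 and -3.68. The spread inside the Ets1 null group was of similar kind, with replicate 1 lowest and replicate 3 highest in Acta2, Tagln and Myl9.

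**Figure D1:**
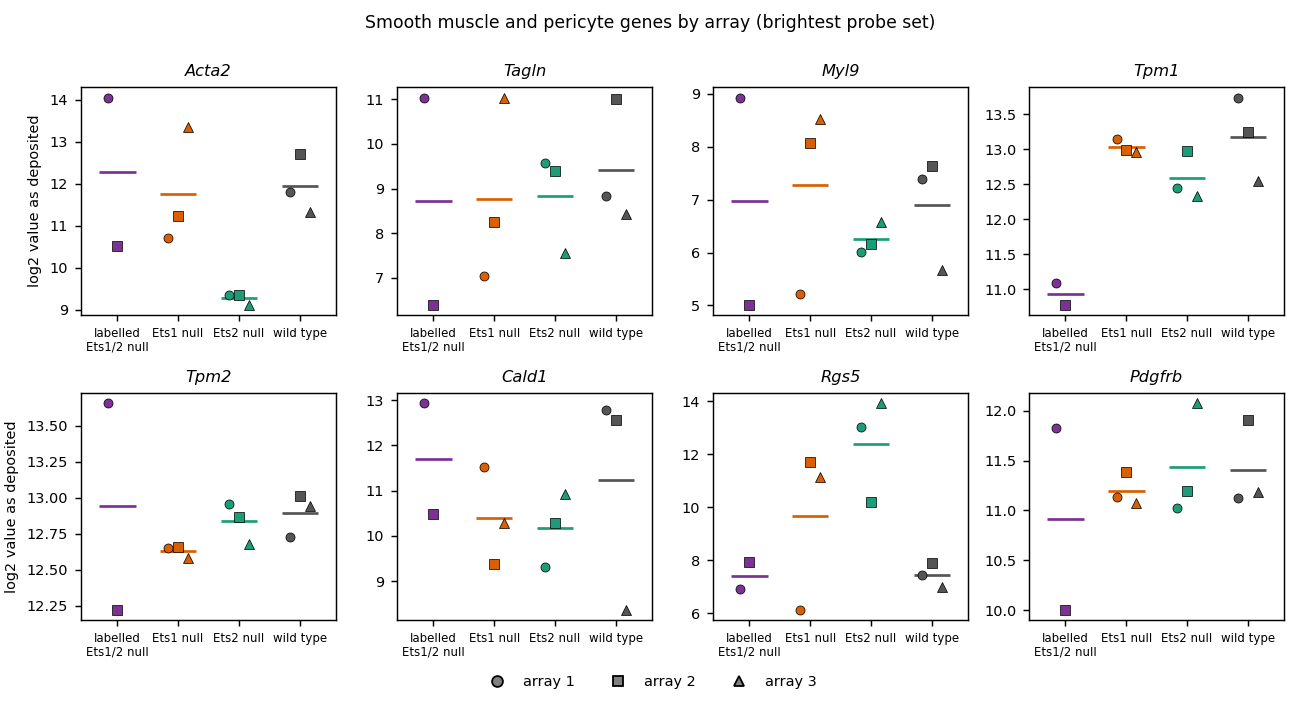
Deposited log2 signal (vertical axes) of the brightest probe set of each of the 8 members on the 11 arrays, by group, with 1 point per array and a bar at the group mean. Acta2 was lowest on all 3 Ets2 null arrays, Rgs5 was above wild type on all 3, and Tpm1 was lowest on the 2 arrays labelled Ets1/2 null.

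The promoter sequences of Acta2, Rgs5 and Tpm1, each called in at least 1 comparison as deposited, and of Myl9, which holds the strict box, are given here to show whether CArG boxes or an ETS motif stand just before their start sites. The windows are the 250 bases before each RefSeq start site on GRCm38.p6, and they were found for 7 of the 10 genes, Cnn1 included; Cald1 had 2 start sites, which makes 8 windows. The search used the CArG box (CC, then 6 bases of A or T, then GG), the same box with at most 1 G or C in its core, and the ETS motif CGGAAG, each on both strands. The strict box occurs in 1.47% of 32851 mouse promoter windows of this length, the relaxed box in 8.59% and CGGAAG in 13.6%. Acta2 lies on the minus strand (chr19:34255374-34255623) and Myl9 on the plus strand (chr2:156775214-156775463). In both, capitals mark the box matches.
Acta2: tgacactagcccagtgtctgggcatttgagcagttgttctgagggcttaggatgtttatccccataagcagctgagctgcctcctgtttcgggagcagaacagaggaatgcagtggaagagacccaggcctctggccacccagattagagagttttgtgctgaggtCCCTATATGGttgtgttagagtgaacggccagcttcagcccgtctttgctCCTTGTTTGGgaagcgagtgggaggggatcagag
Myl9: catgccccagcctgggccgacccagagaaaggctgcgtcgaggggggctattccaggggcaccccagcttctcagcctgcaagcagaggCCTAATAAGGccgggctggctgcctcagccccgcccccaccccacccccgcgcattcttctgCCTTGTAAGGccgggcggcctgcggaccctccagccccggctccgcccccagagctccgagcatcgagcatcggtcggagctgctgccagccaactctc
Acta2 held 2 relaxed boxes, at -84 to -75 and at -34 to -25 from the start site. Myl9 held a strict box at -161 to -152 and a relaxed one at -99 to -90. Tpm1 (chr9:67049214-67049463, minus strand) and Rgs5 (chr1:169655251-169655500, plus strand) held none of the 3 motifs in this window.
Tpm1: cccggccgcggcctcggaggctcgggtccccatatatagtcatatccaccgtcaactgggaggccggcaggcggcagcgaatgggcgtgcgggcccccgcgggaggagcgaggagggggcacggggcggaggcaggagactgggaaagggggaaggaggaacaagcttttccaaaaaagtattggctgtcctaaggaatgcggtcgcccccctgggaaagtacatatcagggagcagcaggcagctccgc
Rgs5: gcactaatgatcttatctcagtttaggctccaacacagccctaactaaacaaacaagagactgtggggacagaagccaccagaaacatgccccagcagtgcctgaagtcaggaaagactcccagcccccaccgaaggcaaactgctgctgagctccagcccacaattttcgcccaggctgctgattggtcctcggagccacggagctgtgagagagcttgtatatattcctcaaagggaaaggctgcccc
Tpm2 held 1 match to the ETS motif, on the minus strand at -117 to -112, and Cnn1 and Cald1 held none of the 3. These matches describe letters in a window and not binding.

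Tropomyosins lie along the actin filament and control where myosin can reach it. Tpm1, whose gene gives many isoforms from different promoters and exons, had 11.09 and 10.78 on the arrays labelled Ets1/2 null, 13.15, 12.99 and 12.96 on Ets1 null, 12.45, 12.98 and 12.33 on Ets2 null, and 13.74, 13.25 and 12.55 on wild type. The 2 arrays labelled Ets1/2 null lay below all 9 others, and this held after centring, at 2.35 and 2.09 against 2.88 to 4.37. The 3 Tpm1 probe sets did not move alike. The next one, which tracked the brightest at r = 0.92 over the 11 arrays, read 11.69 and 11.24 on the arrays labelled Ets1/2 null and 12.29 to 13.56 on the other 9. The dimmest, at r = -0.27 with the brightest, read 7.57 and 7.64 on the arrays labelled Ets1/2 null, inside the range of 6.72 to 7.89 on the others.

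Tpm2, the beta-tropomyosin gene, had 13.66 and 12.22 on the arrays labelled Ets1/2 null, 12.65, 12.66 and 12.58 on Ets1 null, 12.96, 12.87 and 12.68 on Ets2 null, and 12.73, 13.01 and 12.94 on wild type. It was the steadiest member outside the pair labelled Ets1/2 null, since the other 9 arrays spanned 12.58 to 13.01. Its 3 other probe sets followed the brightest at r = 0.99, 0.81 and 0.51. Cald1, which encodes caldesmon, an actin-binding brake on myosin, had 12.94 and 10.48 on the arrays labelled Ets1/2 null, 11.53, 9.37 and 10.28 on Ets1 null, 9.32, 10.29 and 10.92 on Ets2 null, and 12.78, 12.56 and 8.36 on wild type. Wild type replicate 3 was the lowest of all 11 arrays while the other wild type arrays were among the highest. The same gap showed in another Cald1 probe set, with 11.63 and 11.65 on wild type replicates 1 and 2 and 4.76 on replicate 3.

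Rgs5, a regulator of G protein signalling used as a pericyte marker, had the widest range of the list over the 11 arrays. It read 6.89 and 7.94 on the arrays labelled Ets1/2 null, 6.11, 11.71 and 11.13 on Ets1 null, 13.03, 10.18 and 13.93 on Ets2 null, and 7.45, 7.90 and 6.97 on wild type. All 3 Ets2 null arrays stood above all wild type arrays and above both arrays labelled Ets1/2 null. The Ets1 null group was split, with replicate 1 the lowest of the 11 arrays and replicates 2 and 3 inside the Ets2 null range.

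Rgs5 has 4 probe sets, and in all of them the 3 Ets2 null arrays stood above the arrays labelled Ets1/2 null and above wild type. The 3 dimmer ones followed the brightest at r = 0.95, 0.99 and 0.98 over the 11 arrays. In one of them the Ets2 null arrays read 10.88, 7.58 and 12.07, and wild type read 5.50, 5.60 and 5.35. In the same probe set the Ets1 null arrays read 4.44, 9.13 and 8.63, with replicate 1 low again. The probe sets share their RNA and are not replicates of each other.

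**Figure D2:**
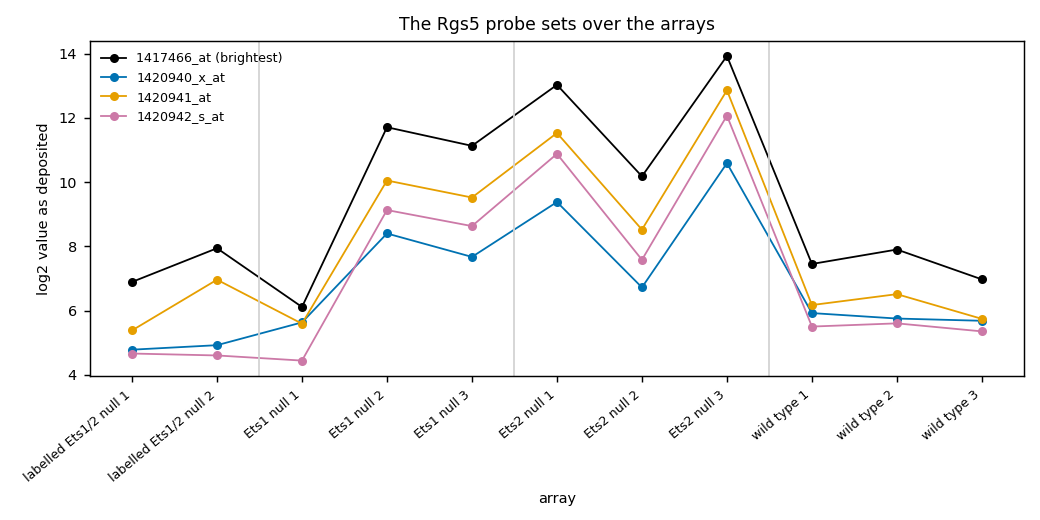
Deposited log2 signal of the 4 Rgs5 probe sets (1 line each) on the 11 arrays, ordered by group. The lines run in parallel: high on the 3 Ets2 null arrays and on Ets1 null replicates 2 and 3, low on Ets1 null replicate 1, wild type and the arrays labelled Ets1/2 null.

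Pdgfrb, the receptor through which PDGF-B holds pericytes at the vessel, had 11.83 and 9.997 on the arrays labelled Ets1/2 null, 11.14, 11.39 and 11.07 on Ets1 null, 11.02, 11.20 and 12.08 on Ets2 null, and 11.13, 11.91 and 11.19 on wild type. The single null groups and wild type overlapped, and Pdgfrb did not share the Rgs5 pattern. On these bulk arrays, fewer cells of a type and less RNA per cell cannot be told apart, for Rgs5 and Pdgfrb as for the contractile genes. The dimmer Pdgfrb probe set read 8.66 and 7.77 on the arrays labelled Ets1/2 null, below the range of 9.64 to 10.41 on the other 9 arrays.

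With the order of group means, Acta2 ran from the arrays labelled Ets1/2 null through wild type and Ets1 null down to Ets2 null, and only the step to Ets2 null was wider than the overlap of the arrays. Rgs5 ran from Ets2 null through Ets1 null to wild type and the arrays labelled Ets1/2 null as deposited, and these last 2 changed places after centring. In Tpm1 the order was wild type, Ets1 null, Ets2 null and the arrays labelled Ets1/2 null, with overlap between all neighbours but the last. Neighbours in the orders of Tagln, Myl9, Cald1 and Pdgfrb overlapped at each step as deposited. Tpm2 overlapped at each step but the last, where Ets2 null spanned 12.68 to 12.96 and Ets1 null 12.58 to 12.66.

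Loss of Ets2 alone was compared with wild type to ask which members depend on it. Acta2 was lower and Rgs5 higher on every Ets2 null array than on any wild type array, but neither passed the test across all genes. Rgs5 averaged 12.38 ± 1.96 on Ets2 null arrays and 7.44 ± 0.47 on wild type (SD, n = 3 each), a log2 difference of 4.94 ± 1.43 (SE, limma adjusted p = 0.132; centred 4.95, adjusted p = 0.128). Acta2 differed by -2.67 ± 0.91 (adjusted p = 0.177; centred -2.66, adjusted p = 0.172). In limma's fit 0 of 8 members were called at adjusted p below 0.05, against 0.3% of all genes (33 genes) as deposited, 0.436% after centring and 0.291% on both scales, while 2 members and 2092 genes had an unadjusted p below 0.05. The groups did not overlap in 2 of 8 members, against 26.5% of all genes. Without Ets2 null replicate 3, the differences were 4.16 for Rgs5 (adjusted p = 0.304) and -2.60 for Acta2 (adjusted p = 0.342), by limma.

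The other members differed less between Ets2 null and wild type cells. Tpm1 differed by -0.60 ± 0.29 (limma adjusted p = 0.3), Cald1 by -1.05 ± 1.19, Myl9 by -0.64 ± 1.10 and Tagln by -0.57 ± 1.37, and Tpm2 and Pdgfrb by -0.06 ± 0.30 and 0.02 ± 0.46. The median of the 8 was -0.59, against -0.02 over all genes. The 4 Rgs5 probe sets gave log2 differences of 3.11 to 4.94, with adjusted p between 0.103 and 0.127 when all probe sets were fitted. With weights that let arrays count unequally, Acta2 differed by -2.95 and passed (adjusted p = 0.0308), with the least weight, 0.3, given to wild type replicate 3 and Ets2 null replicate 3. Sex of the arrays moved with this comparison, since all 3 Ets2 null arrays were male and 2 of 3 wild type arrays female. The male wild type array read 7.45 in Rgs5 and 11.81 in Acta2. A term for male arrays gave differences of 4.93 for Rgs5 (limma adjusted p = 0.571) and -2.54 for Acta2 (adjusted p = 0.648). Only wild type held both sexes, so this term rests on wild type replicate 1 alone and cannot separate sex from genotype.

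Loss of Ets1 alone left no member past the test. Rgs5 averaged 9.65 ± 3.08 on Ets1 null arrays against 7.44 ± 0.47 on wild type (SD, n = 3 each), a log2 difference of 2.21 ± 1.43 (SE, limma adjusted p = 0.684; centred 2.17, adjusted p = 0.671) that rested on replicates 2 and 3. Tpm2 was the 1 member of 8 whose arrays did not overlap, against 17.9% of all genes, at 12.63 ± 0.05 on Ets1 null and 12.89 ± 0.15 on wild type, a log2 difference of -0.26 ± 0.30 (adjusted p = 0.839). The remaining 6 differed by between -0.84 (Cald1) and 0.37 (Myl9), all smaller than their standard errors. With limma 0 of 8 members were called and 0 had an unadjusted p below 0.05, against 0.00908% of all genes called (1 gene) and 949 genes with an unadjusted p below 0.05.

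Cells labelled Ets1/2 null were compared with wild type to ask what changed with both losses. Tpm1 fell in them, by 2.25 on the log2 scale (SE 0.32, 4.76-fold, limma adjusted p = 0.000581). After centring it fell by 1.53 (SE 0.35, 2.89-fold, adjusted p = 0.0119), and 1 array labelled Ets1/2 null, replicate 2, decided that call: without it the centred difference was -1.40 (adjusted p = 0.0731). Tpm1 was the 1 member of 8 called, as deposited and centred, against 45.9% of all genes as deposited, 28.3% centred and 14.3% on both scales. It was also the 1 member of 8 whose arrays did not overlap with wild type, against 63.6% of all genes. The median gene differed by -0.61 as deposited and by 0.11 after centring, and the median member by 0.01 and 0.73. Leaving out replicate 1 labelled Ets1/2 null made 3 members called as deposited (Tpm1, Tpm2 at -0.67 and Pdgfrb at -1.41), and leaving out replicate 2 made 2 (Tpm1 and Tpm2 at 0.77).

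The Tpm1 probe sets differed in this result. The next brightest differed by -1.58 as deposited (limma adjusted p = 0.00209), and by -0.79 after centring, where it did not pass (adjusted p = 0.0781). The dimmest differed by -0.16 (adjusted p = 0.657), and by 0.64 in the other direction after centring (adjusted p = 0.112). Among the other members, Acta2 differed by 0.33 ± 1.02 (adjusted p = 0.812), Tagln by -0.70 ± 1.53, Myl9 by 0.07 ± 1.23, Cald1 by 0.47 ± 1.33 and Rgs5 by -0.02 ± 1.59. In Acta2, Tagln, Myl9 and Cald1 the 2 arrays labelled Ets1/2 null lay on either side of the wild type mean. Pdgfrb differed by -0.50 ± 0.51 (adjusted p = 0.452) in its brightest probe set and by -1.68 in the dimmer one (adjusted p = 0.0027), which after centring did not pass (adjusted p = 0.0603). Tpm2 differed by 0.05 ± 0.34 as deposited and by 0.77 after centring (adjusted p = 0.111).

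Against Ets1 null cells, which share the label Ets1-/- and floxed Ets2 but had no Cre, cells labelled Ets1/2 null again had less Tpm1. It fell by 2.10 on the log2 scale (SE 0.32, 4.3-fold, limma adjusted p = 0.000846) and by 1.34 after centring (SE 0.35, adjusted p = 0.0205). Without replicate 1 or replicate 2 of the arrays labelled Ets1/2 null, the centred difference was -1.48 (adjusted p = 0.0583) or -1.21 (adjusted p = 0.1). It was the 1 member of 8 called as deposited, against 44.5% of all genes, and the 1 called on both scales, against 13%. It was also the 1 member of 8 without overlap, against 67.2%. After centring Tpm2 was called too, which made 2 of 8 against 28.7%. Tpm2 then differed by 1.07 ± 0.33 (adjusted p = 0.0374), while as deposited it differed by 0.31 ± 0.34 (adjusted p = 0.484). Rgs5 differed by -2.23 ± 1.59 (adjusted p = 0.283). Without Ets1 null replicate 1, the array low in Rgs5, that difference was -4.0 (adjusted p = 0.0181). Without replicate 2 labelled Ets1/2 null, Tpm2 was called as deposited as well, at 1.03 (adjusted p = 0.00348). Both comparisons use the same 2 arrays labelled Ets1/2 null, so their values are not independent.

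Against Ets2 null cells, which also received Cre but are labelled Ets1+/+, cells labelled Ets1/2 null had more Acta2. It averaged 12.28 ± 2.50 on arrays labelled Ets1/2 null (SD, n = 2) and 9.28 ± 0.13 on Ets2 null arrays (SD, n = 3), and it rose by 3.0 ± 1.0 on the log2 scale (8.0-fold, limma adjusted p = 0.0371) and by 3.71 ± 1.01 after centring (13.1-fold, adjusted p = 0.0236). Replicate 1 labelled Ets1/2 null decided this call, since without it the difference was 1.23 (adjusted p = 0.319). The difference stayed between 2.92 and 3.04 but missed the threshold without wild type replicate 1, Ets1 null replicate 2 or any 1 of the Ets2 null arrays (adjusted p = 0.0506 to 0.0736), and with the replicate block (3.14, adjusted p = 0.0643). Fitting only the arrays of these 2 groups gave the same 3.0 with an adjusted p of 0.0771. A term for male arrays, which rests on wild type replicate 1 alone, gave 2.80 (adjusted p = 0.298). No male array stood on the Ets1/2 null side.

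Rgs5 and Tpm1 were called in this comparison as deposited but not after centring. Rgs5 averaged 7.42 ± 0.75 on arrays labelled Ets1/2 null and 12.38 ± 1.96 on Ets2 null arrays, a log2 difference of -4.96 ± 1.59 (31.2-fold, limma adjusted p = 0.0299; centred -4.26, adjusted p = 0.0715). Without Ets2 null replicate 1 or 3, or without either array labelled Ets1/2 null, it was not called as deposited (adjusted p = 0.0754 to 0.135). Of its 4 probe sets, 2 had an adjusted p below 0.05 after centring over probe sets, at 0.0373 and 0.0328, and 2 did not, at 0.0667 and 0.0578. Tpm1 differed by -1.65 ± 0.32 (adjusted p = 0.00296; centred -0.95, adjusted p = 0.0686). The term for male arrays, which rests on wild type replicate 1, gave -0.81 for Tpm1 (adjusted p = 0.223) and -4.95 for Rgs5 (adjusted p = 0.244). With it neither was called. This made 3 of 8 members called as deposited against 46.3% of all genes, 1 after centring against 30.3%, and 1 on both scales against 16.2%. The same 3 members did not overlap between the groups, against 64.2% of all genes. Cald1 differed by 1.53 ± 1.33 (adjusted p = 0.377), although after centring both arrays labelled Ets1/2 null, at 4.20 and 1.78, lay above all Ets2 null arrays.

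**Figure D3:**
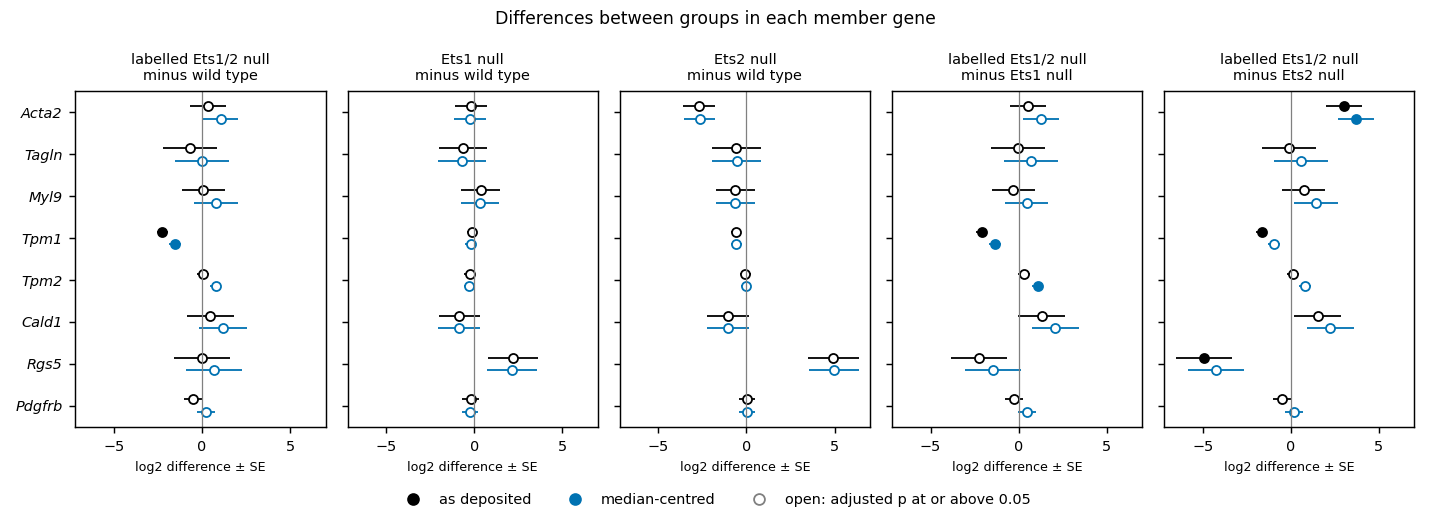
Log2 differences of the 8 members in the 5 comparisons (horizontal axes, limma estimate with SE bars), as deposited (black) and after median centring (blue); filled points have an adjusted p below 0.05. Centring moved every difference that involved the arrays labelled Ets1/2 null upwards by about the same amount, and left the comparisons of the single null groups with wild type in place.

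Whether Ets2 loss acted differently with and without Ets1 was tested as an interaction, the difference labelled Ets1/2 null minus Ets1 null less the difference Ets2 null minus wild type. As deposited it was -7.17 ± 2.14 for Rgs5 (limma adjusted p = 0.0315) and -1.51 ± 0.43 for Tpm1 (adjusted p = 0.0277). After centring neither passed, at -6.43 (adjusted p = 0.0753) and -0.76 (adjusted p = 0.302). The members called were 2 of 8 as deposited against 31.6% of all genes, and 0 of 8 after centring against 14.5%, where 1594 genes were called. On both scales the background was 8.44%. With each array left out in turn, the Rgs5 term passed as deposited in 2 of 11 fits, those without Ets1 null replicate 1 (-8.94, adjusted p = 0.00294) and without Ets2 null replicate 2 (-8.27, adjusted p = 0.0211). The Tpm1 term passed in 7 of 11, and missed the threshold without Ets1 null replicate 1 or 2, Ets2 null replicate 2 or replicate 2 labelled Ets1/2 null (adjusted p = 0.0547 to 0.0879). For Acta2 the interaction was 3.19 ± 1.37 (adjusted p = 0.106; centred 3.94, adjusted p = 0.0838), and for Cald1 2.37 ± 1.78 (adjusted p = 0.347).

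The 2 arrays labelled Ets1/2 null differed from each other more in the contractile members than in most genes. Replicate 1 was above replicate 2 by 4.65 in Tagln (25.1-fold), 3.92 in Myl9 (15.1-fold), 3.54 in Acta2 (11.6-fold) and 2.46 in Cald1 (5.51-fold). It was also above it by 1.83 in Pdgfrb and 1.44 in Tpm2, while Tpm1 differed by 0.31 and Rgs5 by -1.06. After centring, 7 of the 8 members were higher on replicate 1, against 4967 of 11015 genes. In the same centred values 6 members were higher on replicate 1 by over 1 on the log2 scale, which is 75% against 7.15% of all genes. No test applies to 1 array against 1 array. Their mean in Acta2, Tagln, Myl9 and Cald1 lies between 2 unlike arrays, and in Tpm1 close to both.

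Markers of several other cell types also differed between these 2 arrays. Of the fibroblast markers, Postn read 10.69 and 5.23, Mfap5 9.72 and 4.74, and Dcn 9.44 and 7.17 on replicates 1 and 2. After centring, 11 of the 13 fibroblast markers on the table were higher on replicate 1, with a median difference of 0.73. Of the 10 endothelial markers 5 were higher, with a median of -0.12, and Thbd read 8.20 and 3.98. All 3 adipocyte markers were higher, with a median of 1.10, and Lpl read 10.53 and 5.10. Replicate 1 was higher by over 1 in 38.5%, 30% and 66.7% of these lists, against 7.15% of all genes. Mki67, a marker of dividing cells, read 11.77 and 9.95. Of 5 epithelial and mesothelial markers 2 were higher on replicate 1 after centring, with a median difference of -0.04. Msln read 9.88 and 6.82 and the keratin Krt19 10.18 and 13.57. Other contractile and cytoskeletal genes were higher on replicate 1 after centring in 29 of 34 cases, against 4967 of 11015 over all genes. Their median centred difference was 0.33, against 2.10 for the members. The part of culture makeup in these differences was not tested.

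No pair of members had a correlation across arrays that passed adjustment. The 3 pairs with the highest r joined Acta2, Tagln and Myl9. In centred values over the 11 arrays, Acta2 and Myl9 had r = 0.77 (permutation p = 0.00577) and rho = 0.57 (permutation p = 0.0715), Tagln and Myl9 r = 0.76 (permutation p = 0.00799) and rho = 0.68 (permutation p = 0.0251), and Acta2 and Tagln r = 0.66 (permutation p = 0.0277) and rho = 0.58 (permutation p = 0.0653). Among the 28 pairs of members tested, 0 passed Benjamini-Hochberg adjustment, with 0.112, 0.112 and 0.237 for the r of these 3 and 0.667 for each rho. Without the 2 arrays farthest from the median, r was 0.66, 0.59 and 0.40. As a description of deviations from group means, r was 0.87, 0.80 and 0.95, and without the arrays labelled Ets1/2 null it was 0.75, 0.66 and 0.93 over 9 arrays. Other pairs came next by this measure, Tpm1 and Cald1 at 0.74 and Acta2 and Tpm2 at 0.71 over the 11 arrays. Acta2 and Rgs5 had r = -0.49 (adjusted p = 0.275).

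The genes most alike to a member were named by Pearson's r of centred values over the 11 arrays. For Acta2 they were Hspe1 (0.92), Psme3 (0.91), Arrdc4 (0.91), Abce1 (0.90) and Ccdc134 (0.90), and Myl9 ranked 163rd and Tagln 544th. For Tagln they were Cdkn2c (0.91), Thbs1 (0.86), Tent4a (0.86), Ctps (0.86) and Masp1 (0.85), with Myl9 at rank 26 and Acta2 at rank 109. For Rgs5 they were Stimate (0.92), Zfp296 (0.90), Fxyd1 (0.89), Banp (0.88) and Taf1c (0.87). These are the highest values over all other genes on the same arrays, which share their RNA and scaling.

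Markers of other cell types were read beside the members. The summed signal of 3 adipocyte markers (Adipoq, Lpl and Pparg, of 5 listed; log2 of the sum) was 11.19 and 9.10 on the arrays labelled Ets1/2 null, 7.50 to 8.89 on Ets1 null, 12.04, 13.73 and 14.74 on Ets2 null, and 10.49, 8.46 and 13.43 on wild type. Adipoq, the adipocyte hormone adiponectin, read 7.15, 12.16 and 13.22 on the Ets2 null arrays, where Rgs5 was high. It also read 10.89 on wild type replicate 3, where Rgs5 read 6.97, and 3.63 and 3.80 on Ets1 null replicates 2 and 3, where Rgs5 read 11.71 and 11.13. Whether adipocyte content bears on Rgs5 was not tested.

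Fibroblast markers summed to 16.02 and 15.42 on the arrays labelled Ets1/2 null, 15.47 to 15.76 on Ets1 null, 15.41 to 16.34 on Ets2 null and 15.36 to 16.37 on wild type, which overlapped in all groups as deposited. After centring the arrays labelled Ets1/2 null, at 6.73 to 7.28, lay above Ets1 null, at 6.01 to 6.29, and overlapped Ets2 null (6.02 to 6.88) and wild type (5.86 to 6.94). The 10 endothelial markers summed to 11.97 and 11.43 on the arrays labelled Ets1/2 null, 12.13 to 13.23 on Ets1 null, 13.52 to 14.26 on Ets2 null and 12.40 to 13.91 on wild type. After centring the arrays labelled Ets1/2 null, at 2.74 to 3.24, overlapped Ets1 null (2.64 to 3.76) and wild type (2.97 to 4.54) and lay below Ets2 null (4.11 to 4.87). Fabp4, which adipocytes also express, read 11.97, 13.19 and 13.71 on the Ets2 null arrays and carried much of their sum. The 8 members summed to 15.50 and 13.40, 14.47 to 14.99, 14.41 to 15.07 and 14.26 to 15.18 in the same order of groups. Msln, the mesothelial protein mesothelin, read 9.88 and 6.82 on the arrays labelled Ets1/2 null, 9.91 to 10.36 on Ets1 null, 4.41 to 4.93 on Ets2 null, and 5.06, 5.90 and 10.09 on wild type. Wild type replicate 3, the array lowest in Cald1, was thus the wild type array highest in Msln and in Adipoq. Of 12 leukocyte markers 5 were on the table, and 4 of these lay below the array median on every array. The part of these cell types in the members' differences was not tested.

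**Figure D4:**
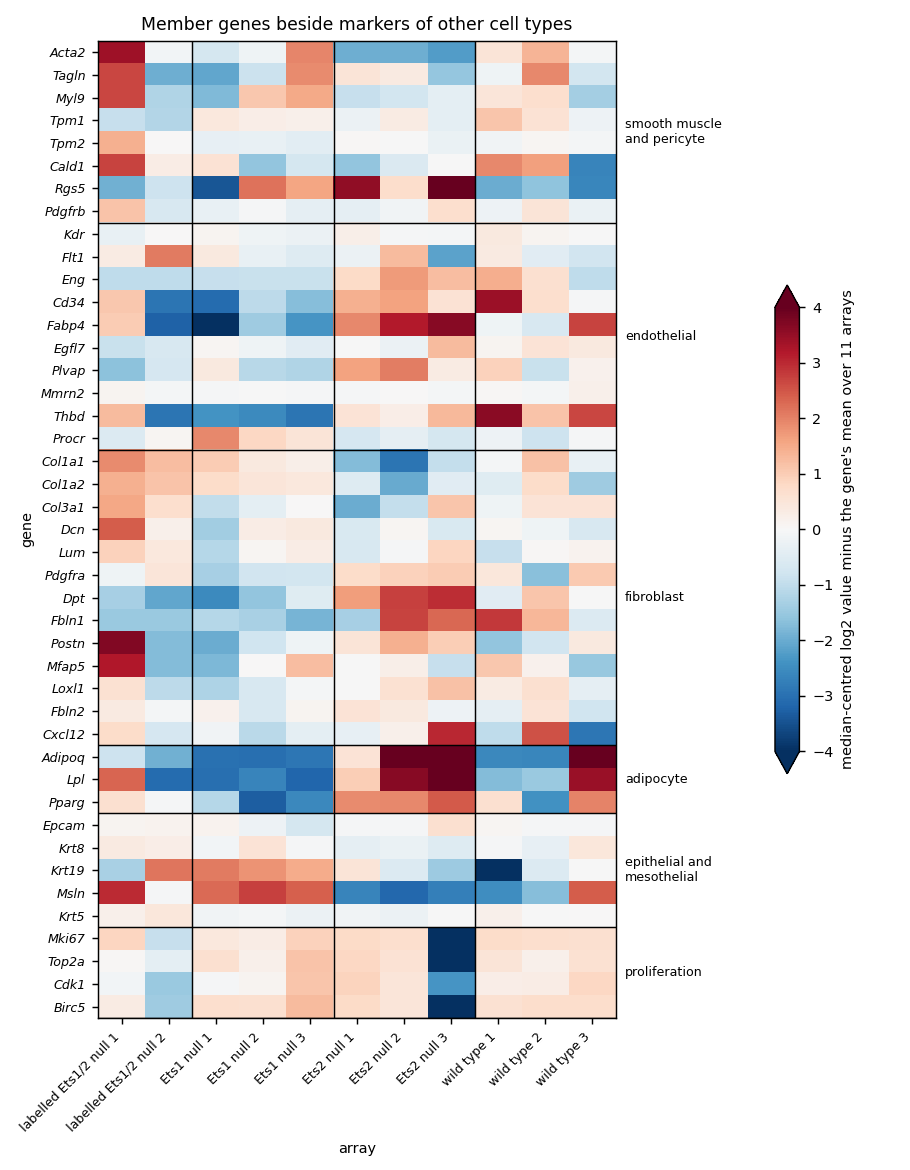
Median-centred log2 signal less each gene's mean over the 11 arrays (colour scale) of the members and of markers of other cell types (rows) on the 11 arrays (columns, by group). Adipoq and Lpl were highest on Ets2 null replicates 2 and 3 and wild type replicate 3, and nearer their means on Ets2 null replicate 1. Lpl was also high on replicate 1 labelled Ets1/2 null. That array stood above replicate 2 labelled Ets1/2 null in most contractile and fibroblast rows and in all 3 adipocyte rows.

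Other contractile and cytoskeletal genes were counted next (34 of 39 listed were on the table). None passed on both scales in either single null against wild type. The 4 with the lowest p in Ets2 null cells were Myl6 (0.97 ± 0.22, limma adjusted p = 0.0921), Tagln2 (-0.72 ± 0.31), Pdlim7 (-0.61 ± 0.29) and Flna (-0.31 ± 0.15). In cells labelled Ets1/2 null against wild type, Zyx, the focal adhesion protein zyxin, fell by 2.59 (SE 0.31, adjusted p = 0.000213; centred -1.87, adjusted p = 0.004) and Rock1, a kinase that keeps Myl9 phosphorylated, rose by 0.70 ± 0.16 (adjusted p = 0.00674; centred 1.42). Zyx read 9.91 and 9.85 on the arrays labelled Ets1/2 null and 11.50 to 12.79 on the other 9. Its other probe set differed by -1.19 and after centring by -0.39 (adjusted p = 0.15), and 2 of the 3 other Rock1 probe sets differed by -0.02 and -0.15 as deposited. Against Ets2 null cells 2 genes passed upwards (Fhl1, by 4.98 ± 1.12, adjusted p = 0.00608, and Rock1) and 3 downwards (Actb, Actn4 and Zyx), 5 of 34, near the 16.2% of all genes on both scales. Against Ets1 null cells Actb and Zyx passed downwards and none upwards, 2 of 34 against 13%, and against wild type Zyx and Rock1 made 2 of 34 against 14.3%. The other Actb probe set went up in both, by 1.23 against Ets2 null and by 1.47 against Ets1 null.

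Of the regulators of these genes, 23 of 28 were on the table, and none was called as deposited in a single null against wild type. In Ets2 null cells Tead1, a transcription factor that binds muscle gene promoters, differed by -0.87 ± 0.17 (limma adjusted p = 0.0716) and Klf4, a repressor of smooth muscle genes, by -1.08 ± 0.32 (adjusted p = 0.141). In cells labelled Ets1/2 null, Mrtfa, a myocardin-family partner of serum response factor, read 8.04 and 8.26 against 9.54 to 10.16 on the other 9 arrays. It fell by 1.77 against wild type (SE 0.20, adjusted p = 0.000181; centred -1.05, adjusted p = 0.00788). Elk1, an ETS factor that also binds serum response factor, read 6.51 and 6.58 against 7.75 to 8.07 on the other 9 arrays, and fell by 1.43 (SE 0.13, adjusted p = 6.53e-05; centred -0.71, adjusted p = 0.00517). Mef2c, a muscle transcription factor, rose by 2.93 ± 0.69 against wild type (adjusted p = 0.00754), with 4 of its 5 probe sets called. It read 10.42 and 9.45 on the arrays labelled Ets1/2 null and 9.45, 9.61 and 9.54 on Ets1 null. Ets2 null held 8.27, 7.88 and 8.23, and wild type 6.20, 8.73 and 6.10. As deposited, Mef2c was not called against Ets1 null or Ets2 null cells. Against wild type, 1 regulator was thus higher and 2 lower on both scales, 3 of 23, a share near the 14.3% of all genes.

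Of the other pericyte and PDGF genes, 16 of 31 were on the table and 0 were called as deposited in any comparison by limma. Of all genes, 44.5% to 46.3% were called as deposited in the pairwise comparisons with arrays labelled Ets1/2 null, 31.6% in the interaction, 0.3% in Ets2 null against wild type and 0.00908% in Ets1 null against wild type. In Ets2 null cells, where Rgs5 was high, Notch3, the receptor that maintains mural cells, differed by 1.16 ± 0.73 (limma adjusted p = 0.414), Agtr1a, an angiotensin receptor, by 1.27 ± 0.59 (adjusted p = 0.281), Pdgfra by 0.92 ± 0.59 and Olfml2a by 0.89 ± 0.54. Ets2 null replicate 3 was the highest of the group in each, with Notch3 at 7.70, 7.21 and 9.93, Agtr1a at 6.99, 6.70 and 8.94 and Olfml2a at 6.69, 6.28 and 8.86 on the 3 Ets2 null arrays. The median of the list was 0.37 there, against -0.02 over all genes.

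Among 9 other RGS genes on the table (of 11), none was called as deposited in a single null against wild type. Rgs3 differed by 0.91 ± 0.23 (limma adjusted p = 0.102) and Rgs2 by 1.47 ± 0.44 (adjusted p = 0.139) in Ets2 null cells. In cells labelled Ets1/2 null against wild type, Rgs3, Rgs12 and Rgs17 fell and Rgs11 rose on both scales, 4 of 9 against 14.3% of all genes. Rgs3 read 7.60 and 7.17 on the arrays labelled Ets1/2 null, 9.59, 9.80 and 9.71 on Ets1 null, 10.44, 10.22 and 10.69 on Ets2 null, and 9.59, 9.93 and 9.10 on wild type. It fell by 2.15 against wild type (SE 0.25, adjusted p = 0.000202; centred -1.43) and by 3.06 against Ets2 null cells (SE 0.25, adjusted p = 3.46e-05), and its interaction was -3.22 ± 0.34 (adjusted p = 0.000289; centred -2.47, adjusted p = 0.00319). The group mean was highest on Ets2 null arrays in Rgs3, as in Rgs5, and also in Rgs2, Rgs12 and Rgs17. It was not in Rgs11, Rgs16 or Rgs19.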

How the data were processed

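RNA of cultured aortic endothelial cells was measured on Affymetrix mouse arrays. Values are log2 signals per probe set, made by the authors with RMA per the submitters' processing notes; the version, the annotation and any filter on probe sets are not stated in the sources. Groups follow titles and genotypes, since the descriptions of the single null arrays call the gene wild type. The column of Ets1/2 null replicate 3 was left out (2 of 20523 probe sets were not the mean of the others, within 1e-06). Probe sets with 1 symbol (18824) were named from the platform annotation, 549 had several and 1150 none; each gene took its brightest probe set by mean over the 11 arrays. limma 3.58.1 in R 4.3.3 (lmFit, eBayes, two-sided) fitted 4 group means over 11015 genes with 7 residual degrees of freedom, and p-values were adjusted by Benjamini-Hochberg over all genes, with a call at 0.05. A change is called a rise or fall where it passed as deposited and after subtracting each array's median, with the same sign. Because RMA scales arrays together only when they are run together, the lower median of the arrays labelled Ets1/2 null can move every difference that uses them. Pairs of members were tested with 100000 permutations. Named genes were all members with every probe set, list genes called on both scales, up to 4 per list with the lowest p in Ets2 null against wild type, and the 5 genes most alike to Acta2, Tagln and Rgs5. Other settings were quantile normalisation, the mean of probe sets, every probe set as a feature, the compared arrays alone, a replicate block, array weights, a term for male arrays, a filter at the 20th percentile, the column of Ets1/2 null replicate 3 kept, and leaving out each array. Added after the data were seen were leaving out an array labelled Ets1/2 null after centring, each other probe set, and the relaxed CArG box. Promoters are RefSeq, GRCm38.p6. Members and lists were chosen with earlier results of these data known. Data were simulated for Ets2 null against wild type, with 11015 genes and changes put into randomly drawn ones. The fit recovered 38% of changes of 1 and 96% of changes of 3 on the log2 scale. These shares describe genes drawn at random and not members of wide spread, such as Rgs5 (SE 1.43) and Acta2 (SE 0.91). The number of arrays limits the precision.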

Additional observations from a re-analysis of the deposited data

Results flagged for a closer look

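The effect of Ets2 loss differed by Ets1 background in 2 members as deposited, by the interaction term, 2 of 8 against 31.6% of all genes. For Rgs5 the effect in Ets1 null cells minus that in cells with Ets1 was -7.17 ± 2.14 (limma adjusted p = 0.0315), and after centring -6.43 (adjusted p = 0.0753); it passed as deposited in 2 of 11 fits that left out 1 array. For Tpm1 it was -1.51 ± 0.43 (adjusted p = 0.0277), and after centring -0.76 (adjusted p = 0.302), while the dimmest Tpm1 probe set gave 0.53 and after centring 1.36 (adjusted p = 0.0371). Both rest on the 2 arrays labelled Ets1/2 null, whose gene medians were 8.73 and 8.69 against 9.37 to 9.50 on the other 9 arrays, and on which the brightest Ets1 probe set was not low. The part of either in these 2 values was not tested.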

How the results depend on the processing

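Members called on single null arrays against wild type stayed at 0 for Ets1 null in every alternative, and for Ets2 null were 0 in all but array weights (1, Acta2). For labelled Ets1/2 null against wild type (1 as deposited), leaving out each array in turn gave 1 to 3. Against Ets1 null (1), centring gave 2, leaving out each array 1 to 2, and centring without replicate 1 labelled Ets1/2 null 0. Against Ets2 null (3), centring gave 1, the replicate block 1, the term for male arrays 0, leaving out each array 1 to 3, and centring without replicate 1 labelled Ets1/2 null 0. For the interaction (2), centring, quantile normalisation and the term for male arrays gave 0, the mean of probe sets and the replicate block 1, array weights 4, leaving out each array 0 to 2, and centring without replicate 1 labelled Ets1/2 null 0; it has no value with only the compared arrays, since it uses all groups. The numbers are no pairing (same-number correlations -0.32 to 0.1), so the block is given for count only: it left 5 of 33 genes for Ets2 null against wild type.

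Reversed values came from other Tpm1 probe sets and from Tpm2. The dimmest Tpm1 probe set averaged 7.55 over the 11 arrays, below the filter cut of 7.77, and its values as deposited were not called. The dimmest Tpm1 probe set gave 0.64 against wild type centred, 0.02 and, centred, 0.87 against Ets1 null (limma adjusted p = 0.041), 0.35 and 1.12 against Ets2 null (adjusted p = 0.0148), and 0.53 and 1.36 for the interaction (adjusted p = 0.0371); the next brightest gave 0.06 for the centred interaction. Tpm2 without replicate 1 labelled Ets1/2 null gave -0.67 against wild type (adjusted p = 0.0207) and -0.61 against Ets2 null (adjusted p = 0.0287), and without replicate 2 gave 0.77 and 0.82. The cause was not tested. Tpm1 was called in 22, 21 and 19 of 23 alternatives against wild type, Ets1 null and Ets2 null, Acta2 against Ets2 null in 13 and Rgs5 in 12. Of the single-member values under alternatives, 1057 kept direction and call, 64 lost the call, 27 gained it, 10 reversed and 124 uncalled values changed sign. Genes called in all ranged over 0 to 191 (1 as reported) for Ets1 null, 0 to 1044 (33) for Ets2 null, and, for labelled Ets1/2 null, 1926 to 6127 (5054), 2158 to 5880 (4900) and 2190 to 6116 (5103) against wild type, Ets1 null and Ets2 null, and 1035 to 4406 (3479) for the interaction. The split changed with centring: 1801 of 3118 genes called against wild type were higher after centring, 256 of 5054 as deposited.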
